A study of Mus musculus with 8 samples.

Results

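The canonical histone genes are the clustered genes that encode the core histones H2A, H2B, H3 and H4 and the linker histone H1. They were taken here as the array probes, control spots left out, whose gene name in the deposited files begins with Hist1h, Hist2h, Hist3h or Hist4h. Hist1h1t and Hist1h2ba, which encode the testis histones H1t and TH2B, were left out by the same rule, whereas Hist1h2aa, which encodes the testis H2A partner of TH2B, was kept. The rule found 55 probes of 47 gene names, out of 55681 probes of 34821 gene names on the array. By class these were 16 H2A probes (14 genes), 14 H4 probes (9 genes), 12 H2B probes (11 genes), 8 H3 probes (8 genes) and 5 H1 probes (5 genes). Current RefSeq symbols were found through the accession for 50 probes and through a synonym for 5. Hist1h2al and Hist3h2bb-ps are pseudogenes under their current symbols. Of the 53 probes with a position, 38 lay on chromosome 13, 10 on chromosome 3, 3 on chromosome 11 and 2 on chromosome 6.

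Testes of C57BL/6 mice were profiled on 8 one-colour Agilent arrays. Wild type (Ip6k1+/+) and knockout (Ip6k1-/-) littermates were bred from heterozygous Ip6k1+/- parents and killed with CO2 at 17 or 26 days postpartum (dpp), which gave 4 groups of 2 arrays (n = 2 throughout). Ip6k1 encodes a kinase that makes inositol pyrophosphates, and the part of the gene that the null allele lacks is not given in the sources used here. Whole testes were used, so fewer cells of a type and less RNA per cell cannot be told apart, and the testes carry germ cells of the first wave of spermatogenesis together with somatic cells. Arrays of 1 group are biological replicates in the labels, which do not say whether animals were pooled.

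Most messenger RNAs carry a poly(A) tail, but the RNAs of canonical histone genes are made in S phase and end in a short stem-loop that is bound by the stem-loop binding protein Slbp and cut with the help of the U7 small nuclear RNA. Some histone genes can also be read through the stem-loop to a downstream poly(A) signal, which is known for differentiated cells. In these samples, per the labels' protocols, total RNA was copied from an oligo-dT primer into cDNA and then into Cy3-labelled cRNA, so a histone signal on these arrays is a signal of what that primer copied. In spermatids, histones are later exchanged for transition proteins and protamines.

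Of the 55 probes, 6 contained the histone stem-loop itself, sought as a stem of 6 bases that begins with GG and ends with T, a loop of 4 bases, and the exact complement of the stem. Among all 55681 probes 15 did (0.0269%, against 10.91% of the histone probes). The windows around these stem-loops are shown because they mark the end of the processed histone RNA, and capitals mark the stem and loop.
Hist1h4m: aactaaaGGCCCTTTTCAGGGCCatccaa
Hist1h3g: ctttaaaGGCTCTTCTTAGAGCCaccca
Hist2h2aa2: taaaaaGGCTCTTTTCAGAGCCacccact
Hist1h3a: aaccaaaGGCTCTTTTCAGAGCCaca
Hist2h2bb: cccaaaaGGCTCTTTTCAGAGCCacttta
Hist1h3i: aacaaaaGGCTCTTTTCAGAGCCccctc
The same 16 letters recurred in 4 of the 6 probes, and the other 2 differed in the stem (Hist1h4m) or in the loop (Hist1h3g). The probes lie, on the mm9 build of the files, at chr13:21903960-21904019 (plus strand, Hist1h4m), chr13:23627719-23627778 (plus, Hist1h3g), chr3:96043669-96043728 (minus, Hist2h2aa2), chr13:23853756-23853815 (minus, Hist1h3a), chr3:96074056-96074115 (plus, Hist2h2bb) and chr13:21874784-21874843 (minus, Hist1h3i). The letters AATAAA, those of the poly(A) signal, were present in 3 histone probes (5.45%, against 10.1% of all probes). These were the probes of Hist3h2ba and Hist1h2ag and the downstream Hist2h2bb probe. In Hist1h2ag the letters include the stop codon TAA of H2A. ATTAAA was present in 2 (3.64%, against 3.95%), those of Hist1h2be and Hist1h4i. These matches describe letters only, and their use as poly(A) signals was not tested.

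Against the RefSeq gene models of GRCm38.p6, 32 probes lay within the model without a whole stem-loop, and 17 lay beyond its end or, in models over 1000 bases long, more than 500 bases into the target. The last set is called downstream here. The stem-loop probe of Hist2h2aa2 begins at base 569 of its target, where the model is 596 bases long, and so also extends beyond the model. The Hist1h2ab probe ends within its stem-loop and was counted as lying within the model.

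Many of these genes encode identical proteins, and the probes could not always tell them apart. A group of 7 H2A probes for Hist2h2aa2, Hist2h2ac, Hist1h2an, Hist1h2af, Hist1h2ag, Hist1h2ak and Hist1h2ah covers the last codons of H2A. Within this group probes were linked by at least 90% identity over 40 or more bases or by an identical run of 30 or more. Of the group, 4 are shown, with capitals for the run that each shares with the Hist1h2ah probe (in Hist1h2ah, the run shared with Hist2h2ac).
Hist1h2ah: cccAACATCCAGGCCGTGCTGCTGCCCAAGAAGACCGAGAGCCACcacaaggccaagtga
Hist2h2ac: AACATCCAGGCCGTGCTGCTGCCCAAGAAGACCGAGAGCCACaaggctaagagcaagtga
Hist1h2an: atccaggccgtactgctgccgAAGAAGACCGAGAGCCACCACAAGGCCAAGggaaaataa
Hist2h2aa2: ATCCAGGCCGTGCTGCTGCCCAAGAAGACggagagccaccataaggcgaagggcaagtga
The shared runs were 42 bases in Hist2h2ac, 30 in Hist1h2an and 29 in Hist2h2aa2. The same rule linked 3 H4 probes (Hist1h4j, Hist1h4d and a Hist1h4k probe) and 2 H3 probes (Hist1h3f and Hist1h3c). Outside the histone genes named here, the H2afj probe matched Hist2h2ac in 45 of 50 bases. A probe of a long non-coding RNA matched the downstream Hist2h2bb probe in 42 of 42. Values of these probes are therefore given as those of the probe, not of 1 gene.

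Values are on a log2 scale, with the processed signal of each probe divided by the array's 75th percentile, so 0 is the signal of a probe at that percentile. A probe was tested if the scanner software marked it well above background on each array of 1 group or more, which 49 of the 55 histone probes (42 genes) and 37810 of all probes were. The 6 others were the probes of Hist1h2ae, Hist1h2bg, Hist2h2ab and Hist1h1d, 1 of the 2 Hist4h4 probes and the Hist1h2bb probe. The first 5 of these were above background on 0 of 8 arrays and Hist1h2bb on 1. Differences were tested with limma over all tested probes, and a probe is said to have passed when its Benjamini-Hochberg adjusted p was under 0.05.

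The probe of the targeted gene, Ip6k1, read 2.20 and 2.30 in wild type against 1.37 and 1.49 in knockout at the younger age, and 2.80 and 2.77 against 1.41 and 1.30 at the older one. The 75th percentile of the signal was 470.2 to 691.8, and between 58.8% and 64.7% of probes were well above background. Arrays of a group correlated across probes at 0.979 to 0.988 in 3 groups and at 0.867 in knockout at 26 dpp, where knockout replicate 2 stood apart. Results that rest on that array are given with and without it.

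In wild type testis, 20 of the 49 histone probes differed between 26 and 17 dpp. All 4 H1 probes tested, 4 of 14 H2A probes, 4 of 10 H2B probes and 3 of 13 H4 probes fell, 15 in all. Those that rose were 5: 3 H2B probes, 1 H2A probe and 1 H3 probe. Among all tested probes 17.9% rose and 25.5% fell, so 5 of 49 higher and 15 of 49 lower histone probes are not far from the array as a whole. The median difference was -0.68 over the histone probes and -0.47 over all probes, which shows how far the middle of the array shifted under this scaling. The called histone probes lay on either side of that shift, the lower ones at -1.08 or below and the higher ones at 1.44 or above. At an unadjusted p under 0.05 the count was 30. Leaving out an array changed the count in each case: without either of the wild type arrays of either age 0 of 49 passed (12 to 20 at an unadjusted p under 0.05), where 0 to 217 of all 37810 probes did. Without knockout replicate 1 or 2 of 17 dpp 11 passed, where 25.4% of all probes did. Without knockout replicate 1 or 2 of 26 dpp 32 passed, where 67.2% of all probes did. All arrays were on 1 slide, with 17 dpp in row 1 and 26 dpp in row 2, so row and age cannot be told apart.

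**Figure D1:**
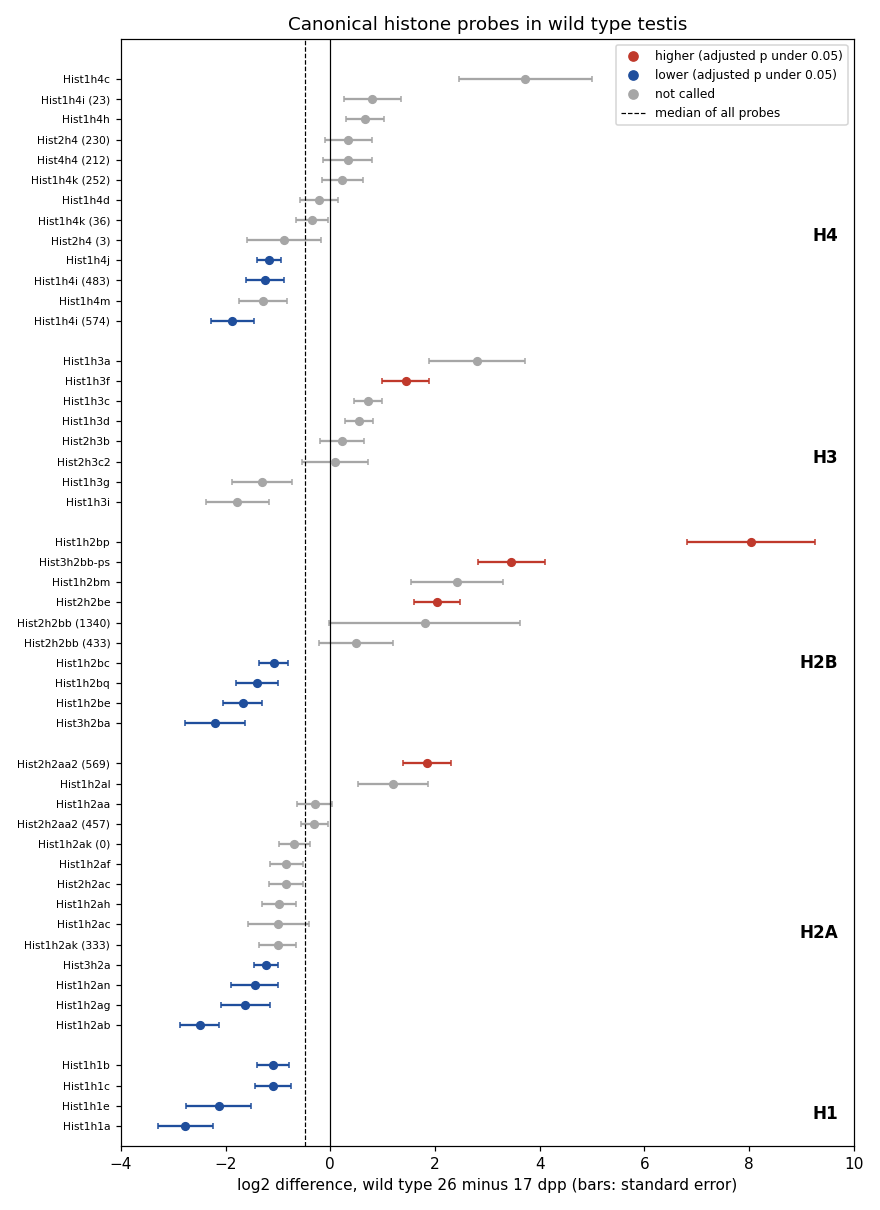
Log2 difference between wild type testes of 26 and 17 dpp (x axis; 2 arrays each; bars, standard error) for the 49 tested histone probes, sorted within each class (y axis; numbers in brackets are the start of the probe in its target where a gene has several probes). The 4 H1 probes lie left of the dashed median of all probes at -0.47, and Hist1h2bp lies furthest right at 8.04.

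Linker histones bind the DNA between nucleosomes. Hist1h1a, at chr13:23855888-23855947 on the plus strand, read 0.51 and 0.27 on the wild type arrays of 17 dpp and -2.34 and -2.41 at 26 dpp. It thus fell by 2.77 on the log2 scale (SE 0.52), or 6.81-fold (limma, adjusted p = 0.0144). In knockout it read -0.24 and 0.19 at 17 dpp and -2.37 and -0.78 at 26 dpp, where replicate 1 lay between the wild type arrays of that age and replicate 2 was higher. Hist1h1e read 0.54 and 1.07 on the wild type arrays of 17 dpp and -1.17 and -1.48 at 26 dpp, 4.38-fold lower (adjusted p = 0.0366). Hist1h1b and Hist1h1c were each 2.14-fold lower (adjusted p = 0.0331 and 0.0444). In these 4 H1 probes no wild type array of 26 dpp reached the level of a wild type array of 17 dpp. Hist1h1t, the testis H1 left out by the rule, went from -2.89 and -2.72 to -0.53 and -0.61 and was 4.71-fold higher (adjusted p = 0.0123).

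H2A probes fell or did not pass, with 1 exception. Hist1h2ab, at chr13:23843392-23843451 on the plus strand, read -0.35 and 0.18 on the wild type arrays of 17 dpp and -2.43 and -2.72 at 26 dpp, 5.62-fold lower (limma, adjusted p = 0.00928). Hist3h2a, a probe downstream of a gene on chromosome 11, was 2.33-fold lower (adjusted p = 0.0141). The 7 probes for the end of the H2A coding sequence all had differences below 0, from -1.62 to -0.30 with a median of -0.98. Of these 7, Hist1h2ag and Hist1h2an passed, at 3.07-fold and 2.71-fold lower (adjusted p = 0.0378 and 0.0434). Hist1h2ag read 7.18 and 7.29 at 17 dpp and 5.57 and 5.66 at 26 dpp in wild type. The test pools the spread of all 4 groups. For Hist1h2ag the standard deviation was 0.08 and 0.06 in wild type at 17 and 26 dpp and 1.04 in knockout at 26 dpp. Hist1h2aa, the testis H2A, read -3.01 and -2.60 at 17 dpp and -3.18 and -3.03 at 26 dpp and did not pass (difference -0.30, SE 0.34, adjusted p = 0.481).

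The exception was the stem-loop probe of Hist2h2aa2. This probe read 5.15 and 5.25 on the wild type arrays of 17 dpp and 6.82 and 7.27 at 26 dpp, 3.6-fold higher (limma, adjusted p = 0.0269). The other probe of the same gene, printed above, read 6.88 and 6.98 at 17 dpp and 6.48 and 6.77 at 26 dpp (difference -0.30, adjusted p = 0.346). The stem-loop probe carries the 3′ sequence of Hist2h2aa2, whereas the other probe belongs to the near-identical H2A group. The difference between the 2 probes in their change with age was not tested.

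H2B held both the histone probe with the largest rise and several that fell. Hist1h2bp, at chr13:21880994-21881053 on the plus strand, read -3.18 and -3.73 on the wild type arrays of 17 dpp and 4.34 and 4.83 at 26 dpp. It rose by 8.04 on the log2 scale (SE 1.22), or 262-fold (limma, adjusted p = 0.00965). In knockout it read -3.27 and -3.36 at 17 dpp and 4.45 and 0.30 at 26 dpp, so that knockout replicate 2 lay between the ages and all other arrays with their age. Its probe lies downstream, at base 505 of the target, in a gene model of 14079 bases. Hist2h2be was 4.11-fold higher (adjusted p = 0.0196) and Hist3h2bb-ps, which was not well above background at 17 dpp, at least 2.85-fold higher (adjusted p = 0.0138). The "at least" marks a bound, taken from the lowest signal that counted as above background where the dim group lay below it.

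The 4 H2B probes that fell were all downstream probes, as were most H2B probes tested, among them Hist1h2bp and Hist2h2be, which rose. Hist1h2be was 3.19-fold lower (limma, adjusted p = 0.0203), Hist3h2ba 4.59-fold lower (adjusted p = 0.0294) and Hist1h2bc 2.12-fold lower (adjusted p = 0.0287). Hist1h2bq, whose wild type arrays of 26 dpp were not well above background, was at least 1.32-fold lower (adjusted p = 0.0366). Hist1h2bm, read by a probe within the gene model, stood at 0.61 and 0.24 in wild type at 17 dpp and at 2.60 and 3.10 at 26 dpp. This difference of 2.42 (SE 0.87) did not pass (limma, adjusted p = 0.0638). The SE pools all 4 groups, and the standard deviation was 0.26 and 0.35 in wild type at 17 and 26 dpp. In knockout at 26 dpp it was 2.05. Hist1h2ba, the testis H2B left out by the rule, read 0.70 and 0.29 at 17 dpp and 2.28 and 2.71 at 26 dpp (difference 2.00, adjusted p = 0.0631).

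H3 and H4 form the inner part of the nucleosome. Among 8 H3 probes, Hist1h3f rose, from -2.06 and -2.66 in wild type at 17 dpp to -1.28 and -0.56 at 26 dpp, 2.72-fold (limma, adjusted p = 0.0433). Hist1h3a, at its stem-loop, went from -3.04 and -2.56 to -0.47 and 0.49, a difference of 2.81 (SE 0.92) just outside the threshold (adjusted p = 0.0502). Hist1h3i, also at its stem-loop, had a difference of -1.78 (adjusted p = 0.0557) and was above background on 0 of 2 wild type arrays at 26 dpp. Hist1h3c, whose probe shares a run of 36 bases with that of Hist1h3f, had a difference of 0.72 (adjusted p = 0.0721). The spread used for these H3 probes includes the knockout arrays. For Hist1h3a the standard deviation was 0.34 and 0.68 in wild type at 17 and 26 dpp and 1.97 in knockout at 26 dpp. Leaving out knockout replicate 1 or 2 of 26 dpp changes this spread but not the wild type differences.

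Among the H4 probes Hist1h4j fell, from -2.04 and -1.94 in wild type at 17 dpp to -3.23 and -3.09 at 26 dpp, 2.25-fold (limma, adjusted p = 0.0149). Hist1h4c, on a probe within the gene model, went from -2.28 and -2.36 to 0.96 and 1.84. This difference of 3.72 (SE 1.27) was large but did not pass (adjusted p = 0.0559). The SE pools all 4 groups. For Hist1h4c the standard deviation was 0.06 and 0.62 in wild type at 17 and 26 dpp and 3 in knockout at 26 dpp. Hist1h4m, at its stem-loop, had a difference of -1.29 (adjusted p = 0.0626). Differences were smaller at the Hist1h4k probe of base 252, the Hist2h4 probe of base 230 and the Hist4h4 probe of base 212, at 0.23, 0.35 and 0.33, and none of these passed.

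Probes of Hist1h4i had age differences of opposite sign, of which only the downstream ones passed. The probe within the gene model, at chr13:22133139-22133198, read -1.79 and -1.62 on the wild type arrays of 17 dpp and -1.25 and -0.55 at 26 dpp, a difference of 0.80 (SE 0.54) that did not pass (limma, adjusted p = 0.248). The probe that starts at base 483 of the target, beyond a gene model of 403 bases, read -0.71 and -0.94 at 17 dpp and -1.75 and -2.38 at 26 dpp. The probe that starts at base 574, at chr13:22132591-22132650, read 0.50 and 0.29 at 17 dpp and -1.21 and -1.75 at 26 dpp. Both downstream probes fell, by 2.37-fold and 3.66-fold (adjusted p = 0.0382 and 0.0205). The probe at base 483 has no genome position in the files and shares a run of at least 20 bases with 1 probe outside the histone genes. The difference between the probes in their change with age was not tested.

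**Figure D2:**
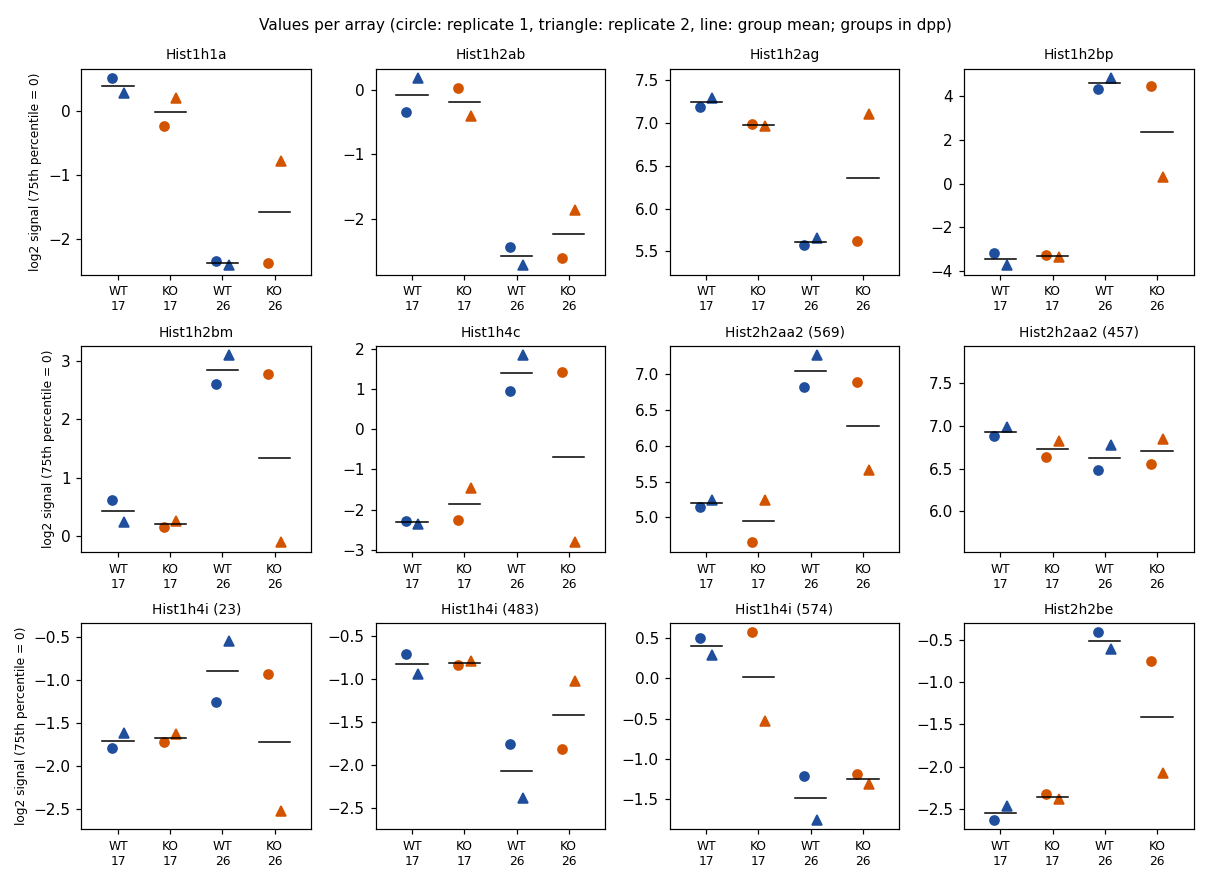
Log2 signal relative to the array's 75th percentile (y axis) on each of the 8 arrays (x axis, 4 groups; circle, replicate 1; triangle, replicate 2; line, group mean) for 12 histone probes. Hist1h2bp, Hist1h4c and Hist1h2bm were high in wild type and knockout replicate 1 at 26 dpp, and Hist1h1a and Hist1h2ag were low there. The 3 Hist1h4i probes differed in the sign of their age difference in wild type, and that of the probe within the gene model did not pass.

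By position of the probe, 8 of 13 tested downstream probes fell and 2 rose in wild type with age, with a median difference of -1.10. Of 30 probes within the gene model 7 fell and 2 rose (median -0.30), and of 6 stem-loop probes 0 fell and 1 rose (median -0.40; 4 at an unadjusted p under 0.05). Over all tested probes 25.5% fell and 17.9% rose. The downstream probes that rose were those of Hist1h2bp and Hist2h2be. These shares describe the probes on the array, and the difference between positions was not tested. The 3 medians did not change without knockout replicate 2 of 26 dpp. The counts within the gene model and at the stem-loop did, since a call draws on the spread of all 4 groups.

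**Figure D3:**
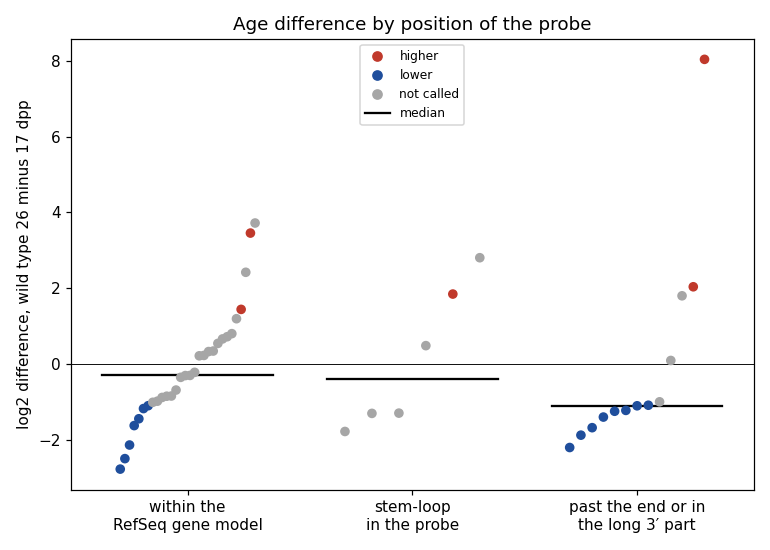
Log2 difference between wild type testes of 26 and 17 dpp (y axis) for the 49 tested histone probes by position against the RefSeq gene model (x axis; 30 within, 6 with a stem-loop, 13 downstream; line, median). Downstream probes had the lowest median, at -1.10, and also held the highest value, 8.04 for Hist1h2bp.

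In knockout testis 1 histone probe rose and 5 fell between 17 and 26 dpp, where 6.81% of all probes rose and 7.84% fell. Hist1h2bp rose (51.5-fold; limma, adjusted p = 0.0346), and without knockout replicate 2 of 26 dpp it rose 217-fold (adjusted p = 0.000179). Those that fell were Hist1h4j, Hist1h2ab, Hist1h1b, Hist3h2a and Hist1h3i, with adjusted p-values from 0.0253 to 0.0434. With median scaling in place of the 75th percentile, the share of higher probes among all called moved from 46.5% to 58.7%, and 1 histone probe rose and 4 fell. With normexp background correction and quantile normalization 0 rose and 3 fell. Without knockout replicate 2 of 26 dpp 9 histone probes rose and 17 fell, where 20.4% of all probes rose and 36.6% fell, and the median over the histone probes was -0.61 against -0.59 with it. Without knockout replicate 1 of 26 dpp 1 rose and 12 fell, where 8.03% of all probes rose and 10.5% fell. Without any 1 of the other 6 arrays 0 passed (10 to 18 at an unadjusted p under 0.05), where 0 to 1249 of all 37810 probes did.

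Between knockout and wild type at 17 dpp, 0 of 49 histone probes passed (limma; 1 at an unadjusted p under 0.05), and 0.0741% of all probes did. Both knockout arrays lay above both wild type arrays for 13 histone probes, where 16.3% of all probes did, and below for 13, where 12.5% did. Those below include all 7 near-identical H2A probes, which are not separate readings. The median difference was -0.01, against 0.03 over all probes. The smallest p belonged to Hist1h2bq, which read -5.24 and -4.82 in wild type against -6.03 and -6.29 in knockout, where it was not well above background (at least 1.40-fold lower, adjusted p = 1). Hist1h2bc read 3.0 and 2.66 in wild type against 2.00 and 2.32 in knockout, 1.59-fold lower (limma, adjusted p = 1). Both H2B probes thus read lower on both knockout arrays, and neither passed.

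Other probes among the 6 smallest p-values at 17 dpp read higher in knockout, without passing. The Hist2h4 probe at base 3 read -7.89 and -5.67 in wild type, where it was not well above background, and -4.76 and -5.52 in knockout. The stem-loop probe of Hist2h2bb read -5.07 and -6.05 in wild type against -3.76 and -4.73 in knockout, and its downstream probe -2.91 and -3.76 against -0.90 and -3.41. Hist1h3i read -6.24 and -5.18 against -3.93 and -5.41, and Hist1h2aa -3.01 and -2.60 against -2.69 and -1.93. The replicates of these dim probes differ by about as much as the groups do. By class, 12 of 13 H4 probes had a difference above 0 (median 0.20) and 12 of 14 H2A probes one below 0 (median -0.20), among them the 7 near-identical probes at -0.27 to -0.16. All these H2A and H4 differences had an adjusted p of 1.

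At 26 dpp 0 of 49 histone probes passed between knockout and wild type (limma; 0 at an unadjusted p under 0.05; smallest adjusted p = 0.546), and 0.00793% of all probes did. Both knockout arrays lay above both wild type arrays for 4 histone probes (16.1% of all probes) and below for 4 (16.4%). The median difference was -0.13 against 0.07 over all probes. Without knockout replicate 2, 0 passed, 0.0291% of all probes did, and the median was -0.03 (all probes -0.02). Without knockout replicate 1, 22 histone probes passed, 9 higher and 13 lower, where 24.9% of all probes were higher and 17.9% lower. Averaged over both ages 0 histone probes passed (0 at an unadjusted p under 0.05), as did 0% of all probes, and 10 passed without knockout replicate 1 of 26 dpp, where 26.6% of all probes did. For the difference of the knockout effect between ages 0 passed (0 at an unadjusted p under 0.05) of the histone probes and 0% of all probes, and 20 histone probes and 29.9% of all probes did without that replicate. The smallest p-values for this difference between ages belonged to Hist1h2bq, the stem-loop probe of Hist2h2bb and Hist3h2bb-ps, at 1.26, -1.84 and -1.67 (limma, adjusted p = 0.792). Without knockout replicate 2 these differences were 0.72, -0.93 and -1.22 (adjusted p = 1).

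**Figure D4:**
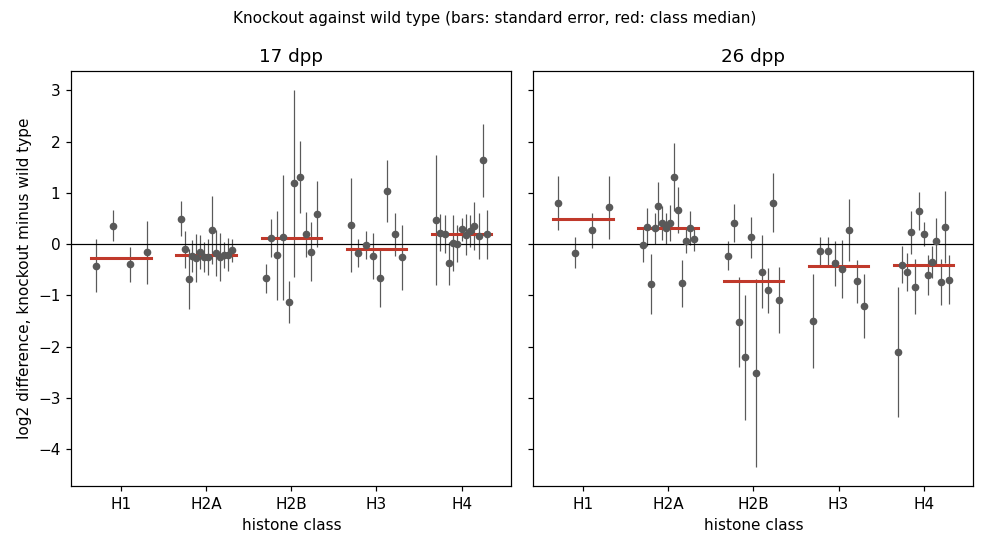
Log2 difference between knockout and wild type (y axis; 2 arrays each; bars, standard error; red line, class median) for the 49 tested histone probes by class (x axis) at 17 dpp (left) and 26 dpp (right). The class medians run from -0.28 to 0.20 at 17 dpp and from -0.72 to 0.49 at 26 dpp, where they run from -0.11 to -0.01 without knockout replicate 2.

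The histone values of the 2 knockout arrays of 26 dpp differed from each other. Replicate 1 was nearer to the wild type mean of 17 dpp than to that of 26 dpp in 2 of 49 histone probes (9.08% of all probes), and replicate 2 in 31 of 49 (59.6% of all probes). The median distance from the wild type mean of 26 dpp was 0.10 for replicate 1 and 0.84 for replicate 2, against 0.13 and 0.84 over all probes. Replicate 2 read lower than the wild type mean by 4.28 on the log2 scale at Hist1h2bp, by 4.22 at Hist1h4c, by 2.96 at Hist1h2bm and by 2.89 at Hist1h3a. It read higher by 1.60 at Hist1h1a and 1.68 at Hist1h1e. The downstream Hist2h2bb probe read -1.77 and -1.31 in wild type, -1.16 in replicate 1 and -6.94 in replicate 2, below the -2.91 and -3.76 of wild type at 17 dpp. Replicate 2 read below the wild type arrays of both ages at further probes too. Hist2h3c2 was at -1.97, against 0.17 and 0.12 at 17 dpp and 0.12 and 0.36 at 26 dpp. Hist2h3b was at -2.25, against -1.22 and -1.14 at 17 dpp and -1.22 and -0.70 at 26 dpp.

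For 5 of the 6 histone probes with the smallest p at 26 dpp, the difference without replicate 2 was at most 0.26 in size, and Hist1h2al was the other. Hist2h2be read -0.41 and -0.61 in wild type against -0.75 and -2.08 in knockout (1.87-fold lower; limma, adjusted p = 0.546), and without replicate 2 the difference was -0.23. Hist2h3c2 read 0.12 and 0.36 in wild type against 0.04 and -1.97 in knockout, and without replicate 2 the difference was -0.20. Hist1h2bp, Hist1h2bm and the Hist1h4i probe at base 483 had differences of -2.21, -1.52 and 0.65 with both arrays and of -0.14, -0.07 and 0.26 with replicate 1 alone. Hist1h2al, a pseudogene, read -5.43 and -6.85 in wild type against -5.30 and -4.36 in knockout, so both knockout arrays lay above both wild type arrays. Its difference was 1.31 with both arrays and 0.84 without replicate 2 (limma, adjusted p = 0.546 and 1). The 7 near-identical H2A probes had differences of 0.07 to 0.74 with both arrays, and without replicate 2 they ran from -0.09 to 0.01, with 6 of 7 below 0.

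**Figure D5:**
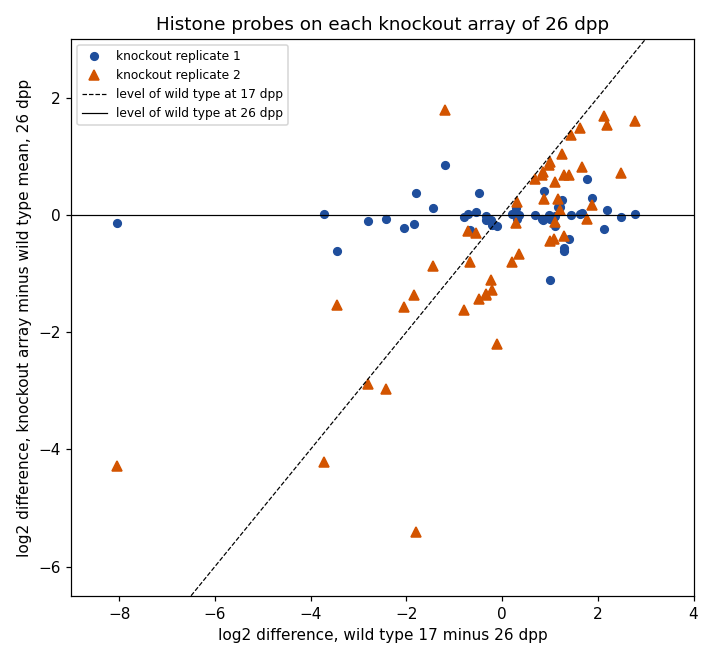
Each knockout array of 26 dpp minus the wild type mean of 26 dpp (y axis, log2) against the difference between wild type of 17 and 26 dpp (x axis, log2) for the 49 tested histone probes; both axes contain the wild type mean of 26 dpp. Replicate 1 (circles) stays near the solid line at 0, and many probes of replicate 2 (triangles) lie near the dashed line, which is the level of wild type at 17 dpp.

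The genes of histone RNA processing, of S phase and of poly(A) addition were counted as lists next to the histone genes. Of 28 genes of DNA replication and S phase, 13 fell and 0 rose in wild type between 17 and 26 dpp (median -1.11, against -0.47 over all probes, of which 25.5% fell). Tk1, which makes thymidine phosphate, read 1.91 and 2.03 at 17 dpp and 0.01 and -0.15 at 26 dpp, 4.13-fold lower (limma, adjusted p = 0.0149). Cdt1, a licensing factor of replication origins, was 4.96-fold lower (adjusted p = 0.0200), and Mcm2 and Mcm3, subunits of the replicative helicase, were 4.63-fold and 3.28-fold lower (adjusted p = 0.0240 and 0.0239). On the same arrays 15 histone probes fell and 5 rose, and a link between them and the S-phase genes was not tested.

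Of 22 histone RNA processing genes tested, 4 rose and 3 fell (median -0.23), where 17.9% of all probes rose and 25.5% fell. Coil, the scaffold of Cajal bodies, rose 6.46-fold (limma, adjusted p = 0.00742), Ncbp1, of the cap-binding complex, 4.62-fold (adjusted p = 0.0109) and Mif4gd, a partner of Slbp, 2.61-fold (adjusted p = 0.0218). Slbp itself went from 2.24 and 1.83 to 3.07 and 3.0 and rose 2.00-fold (adjusted p = 0.0283). Hinfp, a transcription factor of H4 genes, was 2.88-fold lower (adjusted p = 0.0205). Of 16 genes of the poly(A) machinery 4 rose and 0 fell, but the median was 0.04, with 9 of 16 differences above 0. Papolb, the testis poly(A) polymerase, rose from -4.68 and -4.57 to 2.01 and 2.37, 113-fold (adjusted p = 0.00691), Pcf11 4.05-fold, Pabpc1 2.76-fold and Cstf1 2.58-fold (adjusted p = 0.0182, 0.0304 and 0.0127).

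Of 23 histone chaperones 4 rose and 4 fell (median -0.40), where 17.9% of all probes rose and 25.5% fell. Nasp, a carrier of H1 and H3-H4, was 3.06-fold higher (limma, adjusted p = 0.00873), Chaf1a 5.69-fold higher (adjusted p = 0.0137) and Npm2 2.55-fold higher (adjusted p = 0.0168). Cabin1, of the HIRA chaperone complex, was 2.71-fold lower (adjusted p = 0.0280). Of 12 replacement variants 0 rose and 1 fell, Cenpa, the centromeric H3 (4.76-fold lower, adjusted p = 0.0175). H2afv, H2afj and H3f3b had differences of -1.50, -0.64 and -0.67 and did not pass. Of 7 germ cell variants 5 rose and 0 fell. H1fnt and Hils1, linker histones of spermatids, and 1700024P04Rik, the file's name for a spermatid H2B-like gene, were among these, and Hils1 went from -7.90 and -6.88 to 5.84 and 6.88, at least 4270-fold higher (adjusted p = 0.0177). At 26 dpp in knockout, Hils1 read 6.30 in replicate 1 and -3.57 in replicate 2, and H1fnt 6.03 and -5.14.

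Of the 6 lists 0 genes passed between knockout and wild type at 17 or at 26 dpp. The smallest adjusted p among them at 17 dpp belonged to Ccne2, a cyclin of S phase entry (limma, 0.803), whose probe was well above background on 1 of 2 wild type and 0 of 2 knockout arrays, so that no fold is given. Eri1, a nuclease that trims histone RNA ends, had a difference of 1.06 at 26 dpp and Cstf2 one of 1.11 (adjusted p = 0.546 for both). Without knockout replicate 2 these differences were 0.25 and 0.10 (limma, adjusted p = 1).

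Markers of other cells moved with age as well. The summed linear level of 10 spermatogonial markers was 83.5 and 86.9 on the wild type arrays of 17 dpp and 32.5 and 31.3 at 26 dpp, and 5 of 10 fell. The sum of 10 Sertoli cell markers went from 526 and 489 to 232 and 209, and 7 of 10 fell. The sum of 10 round spermatid markers went from 1.69 and 1.71 to 128 and 228, with 8 of 10 higher. Of 10 pachytene spermatocyte and 10 elongating spermatid markers 8 and 9 rose. In knockout at 26 dpp these 3 sums were 33.9, 223 and 165 in replicate 1 and 99.0, 496 and 4.21 in replicate 2, and the round spermatid markers well above background were 10 of 10 and 7 of 10. Other sums of replicate 2 did not match the younger wild type pair. Its pachytene sum was 452 (younger pair, 99.9 and 120; older pair, 497 and 514). Its elongating spermatid sum was 99.6 (younger pair, 14.0 and 15.1; older pair, 723 and 1670). Its sum of 6 Leydig cell markers, 0.893, lay below all other arrays, which ran from 10.5 to 24.0. Among the younger testes, adipocyte markers summed to 4.02 and 216 in the wild type pair against 1.39 and 1.04 in the knockout pair, and 5 of 7 epididymal markers were called lower in the knockout pair. The part of these cells in the histone values was not tested.

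The promoters of 40 of these genes (41 promoters in RefSeq, GRCm38.p6) were searched for 3 motifs on both strands over the 250 bases before the gene start. CCAAT was found in 34 (82.9%, against 33.8% of 32851 promoters): in all 5 of H1, 13 of H2A and 9 of H2B, in 5 of 6 of H3 and in 2 of 8 of H4. TATAAA was found in 21 (51.2%, against 12.4%). The octamer ATTTGCAT was found in 12 (29.3%, against 1.6%), 7 of 13 H2A and 5 of 9 H2B promoters, and in 0 of the H1, H3 and H4 promoters. A match describes the letters in the window only. Some windows of neighbouring genes overlap, so a site found on either strand can count for both genes. The windows of Hist1h2ab, which fell in wild type, and Hist1h2bp, which rose, are shown with the motifs in capitals on either strand. They lie at chr13:23750838-23751087 and chr13:21787238-21787487, both on the plus strand of GRCm38.p6. The Hist1h2bp window overlaps that of Hist1h2an (chr13:21787249-21787498, minus strand), whose probe fell 2.71-fold in wild type.
Hist1h2ab: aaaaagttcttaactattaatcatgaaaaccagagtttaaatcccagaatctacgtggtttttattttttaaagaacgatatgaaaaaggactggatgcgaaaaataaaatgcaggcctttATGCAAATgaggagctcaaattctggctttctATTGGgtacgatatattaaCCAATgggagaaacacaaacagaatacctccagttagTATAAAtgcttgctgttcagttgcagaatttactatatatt
Hist1h2bp: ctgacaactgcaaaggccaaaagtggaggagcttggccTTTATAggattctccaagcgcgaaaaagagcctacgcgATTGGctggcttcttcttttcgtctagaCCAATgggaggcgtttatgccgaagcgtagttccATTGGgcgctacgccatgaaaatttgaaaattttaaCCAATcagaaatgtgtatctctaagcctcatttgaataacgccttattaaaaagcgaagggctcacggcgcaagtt
Both windows hold CCAAT on both strands and TATAAA on 1 strand, and the octamer is in that of Hist1h2ab.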

How the data were processed

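Per the file headers, spots were read with Agilent Feature Extraction 11.5.1.1, and the deposited processed, mean and background signals are intensity values on a linear scale, with positions on mm9. The authors' deposited value table is on a log2 scale with column medians of -3.84 to -3.59. It differed from the values used here by a constant of 0.128 to 0.217 per array, so its reference level stays unknown, and it served as an alternative. Spots flagged as outliers, 103 to 200 on an array, were dropped, 0 spots were saturated, and spots of a probe were averaged. An outlier flag removed 94 probes. limma 3.58.1 in R 4.3.3 fitted 1 mean per group over 8 arrays (4 residual and 2.16 prior degrees of freedom) for 6 comparisons, with p-values adjusted by Benjamini-Hochberg over 37810 probes; the code was tested on simulated data. With 2 arrays a group the number of arrays limits the precision.

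The histone probes, the gene lists and the tests were chosen with earlier results of these data known. Named were, per class, the 4 genes with the smallest p for age in wild type, the 6 with the smallest p in each knockout comparison, the 3 with the smallest p for the difference between ages, all probes of such a gene, Hist1h2aa, and from each list of other genes the 4 with the smallest p for age and 2 for each knockout comparison. Slbp and some further histone probes were named after their values were seen. Alternatives covered scaling, background correction, filters, variance models, left-out arrays and a replicate block. Gene lengths and promoters came from RefSeq tables of GRCm38.p6. No genome or annotation of mm9 was used, so no probe is assigned to an exon or UTR.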

Additional observations from a re-analysis of the deposited data

Results flagged for a closer look

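Hist2h2be read higher on both knockout arrays than on both wild type arrays at 17 dpp (difference 0.19) and lower on both at 26 dpp (difference -0.90). The difference between these knockout effects was -1.09 (SE 0.63) and did not pass in limma (adjusted p = 0.792). Without knockout replicate 2 of 26 dpp it was -0.43 (adjusted p = 1). Among the histone probes tested it was the 1 whose arrays separated in opposite directions at the 2 ages. Of all probes, 16.3% separated above at 17 dpp and 16.4% below at 26 dpp. The share of all probes that separated in opposite directions at the 2 ages was not counted.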

How the results depend on the processing

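The counts in this paragraph are of histone probes. Calls over all probes also moved when an array was left out, as given above. Shares of all probes for the other settings are not given here. A change in a count is therefore not read as particular to the histone probes. For 26 against 17 dpp in wild type, 20 histone probes passed as reported. The count was 13 with no filter on dim probes, 34 with array weights and 33 with wild type arrays alone, and ran from 0 to 32 with 1 array left out. With a replicate block it was 14. The labels do not say whether the replicate numbers pair the samples. The differences between replicates correlated between groups at -0.372 to 0.108, which cannot decide this. For 26 against 17 dpp in knockout 6 passed; it was 3 with normexp and quantile normalization, 0 with array weights, 0 with knockout arrays alone and 0 with a replicate block, and ran from 0 to 26 with 1 array left out. With 1 array left out the count ran from 0 to 22 for knockout against wild type at 26 dpp, from 0 to 10 for the average over ages and from 0 to 20 for the difference between ages; it was 0 at 17 dpp in each case. Where 1 array remained in a group, that array was assumed to vary like the other groups. Crossing the replicate numbers at 26 dpp, an alternative chosen after seeing the data, gave 0. Counting near-identical probes once, chosen likewise, gave 19.

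Of 376 values of named probes for age in wild type, 268 kept direction and side of the threshold, 79 lost the call, 29 gained it and 0 changed direction. Of 276 values for the knockout comparisons 269 stayed and 7 gained a call. Scaling moved the median of all probes: for age in wild type it was -0.47 with the 75th percentile, -0.25 with normexp and quantile normalization and -0.60 with median scaling. The median of the histone probes minus that of all probes then changed from -0.21 to 0.04 and -0.21. Signal near background limits the probes of Hist1h2bq, Hist1h3i, Hist1h2al, Hist3h2bb-ps and Hist2h4 at base 3, and that of Ccne2.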
